A study of Canis lupus familiaris with 13 samples.

Results

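The genes described here are the GADD45 family (GADD45A, GADD45B and GADD45G) and the Cip/Kip family of cyclin-dependent kinase (CDK) inhibitors (CDKN1A, CDKN1B and CDKN1C), measured in dog skeletal muscle with and without insulin stimulation. They were taken by symbol from a deposited table of 30951 genes. Of the 6 symbols, 5 had a row, each on 1 Ensembl identifier, and CDKN1C was not analysed here because no row carried its symbol. All 5 were among the 14629 genes that passed the filter on low counts. RNA came from biopsies of the biceps femoris, a thigh muscle, taken under local anaesthesia from 4 wild-type dogs aged 9 to 10 months. Insulin-stimulated libraries were numbered sample 1 (dogs 1 to 4, n = 4), sample 2 (dogs 1 to 4, n = 4) and sample 3 (dogs 1 and 2, n = 2). Basal libraries were all sample 0 and came from dogs 2, 3 and 4 (n = 3), so dog 1 had no basal library. The labels give neither the insulin dose nor what the sample numbers stand for. Levels are given as CPM, the read count of a gene scaled to a common library size, after TMM scaling for differences in library composition. Libraries held 47333352 to 81948641 counts under insulin and 45200416 to 68278235 counts at basal. Markers of skeletal muscle fibres were all present (12 of 12), with a summed level of 271182 to 444077 CPM in insulin libraries, against 269091 to 351688 CPM in basal libraries.

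GADD45 proteins are small nuclear proteins made in response to stress and growth signals. They bind the kinase MAP3K4, which activates the p38 and JNK pathways, and they take part in DNA repair, in removal of DNA methylation and in cell cycle arrest. In mouse muscle GADD45A is induced by denervation and by fasting, in fasting through the transcription factor ATF4, and it takes part in fibre atrophy. Cip/Kip proteins bind cyclin-CDK complexes and hold cells out of the division cycle. In mouse CDKN1A rises as myoblasts stop dividing and fuse. CDKN1B is raised by FoxO factors, which insulin signalling keeps out of the nucleus.

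GADD45A (ENSCAFG00000029474) was higher under insulin in 6 of 7 within-dog pairs. In insulin sample 1 it was 97.6, 109, 115 and 186 CPM in dogs 1 to 4. In insulin sample 2 it was 135, 42.7, 114 and 169 CPM in the same dogs, and in sample 3 it was 108 CPM in dog 1 and 139 CPM in dog 2. Basal libraries held 63.5, 36.9 and 68.7 CPM in dogs 2, 3 and 4. Every insulin library other than dog 2 sample 2 was above every basal library, and dog 2 sample 2 lay below the basal library of its own dog. The means were 122 ± 39.7 CPM under insulin (SD, n = 10) and 56.3 ± 17 CPM at basal (SD, n = 3).

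The ratio of GADD45A in an insulin library to the basal library of the same dog was close to equal in samples 1 and 2 of dog 3 (3.1-fold in both) and of dog 4 (2.71-fold and 2.47-fold). In dog 2 it was 1.72-fold in sample 1, 0.673-fold in sample 2 and 2.19-fold in sample 3. The fitted log2 fold change with dog as a block was 1.15 ± 0.30 (SE), or 2.22-fold. It did not pass edgeR's quasi-likelihood test with Benjamini-Hochberg adjustment over all genes (adjusted p = 0.319). At least 6 of 7 pairs were higher under insulin in 9.9% of all genes tested. Without dog 2 sample 2 GADD45A passed (log2 fold change 1.31 ± 0.18, edgeR adjusted p = 0.0161), in a fit that called 0.0686% of genes. Without the whole of dog 2 it also passed (1.5 ± 0.21, edgeR adjusted p = 0.0266, with 0.175% of genes called). Both fits leave out the 1 pair that was lower under insulin, so their passes are not separate evidence. GADD45A had 0.95 ± 0.38 without dog 3 and 1.06 ± 0.40 without dog 4, and passed in neither fit. DESeq2 on all libraries gave 1.16 ± 0.31 with an adjusted p of 0.0275, and called 0.711% of genes. With no filter on low counts edgeR called GADD45A, GADD45B and GADD45G (adjusted p of 1.95e-05, 0.0211 and 2.32e-06), along with 0.555% of the 25207 genes then tested. The fold changes hardly moved in that fit, and what changed was the estimate of spread. The SE was 0.21, 0.25 and 0.24 for these genes, against 0.30, 0.46 and 0.31 with the filter.

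GADD45G (ENSCAFG00000002174) was lower under insulin in 7 of 7 within-dog pairs. Insulin sample 1 held 2.41, 6.86, 4.96 and 7.04 CPM in dogs 1 to 4. Insulin sample 2 held 1.96, 7.85, 4.01 and 5.91 CPM in these dogs, and sample 3 held 5.07 CPM in dog 1 and 6.85 CPM in dog 2. Basal libraries held 36.0, 8.82 and 9.26 CPM in dogs 2, 3 and 4. All 10 insulin libraries lay below all 3 basal libraries, a separation found downward in 0.608% of all genes tested. The gap was narrow, with 7.85 CPM in the highest insulin library (dog 2 sample 2) and 8.82 CPM in the lowest basal library (dog 3). All 7 insulin libraries of dogs 2 to 4 were below their own basal library, which held for 3.47% of genes.

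The size of the GADD45G difference varied between dogs. Insulin libraries of dog 2 held 0.191, 0.218 and 0.190 times the basal level (samples 1, 2 and 3), those of dog 3 held 0.563 and 0.455 times, and those of dog 4 held 0.760 and 0.639 times. The means were 5.29 ± 2.00 CPM under insulin (SD, n = 10) and 18.0 ± 15.6 CPM at basal (SD, n = 3). The fitted log2 fold change was -1.41 ± 0.31 (SE), with an edgeR adjusted p of 0.160. DESeq2 gave -1.40 ± 0.34 with an adjusted p of 0.00959. The size rested on dog 2 sample 0: without it the fitted value was -0.75 ± 0.33 (edgeR adjusted p = 1), and without the whole of dog 2 it was -0.75 ± 0.36 (adjusted p = 1).

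**Figure D1:**
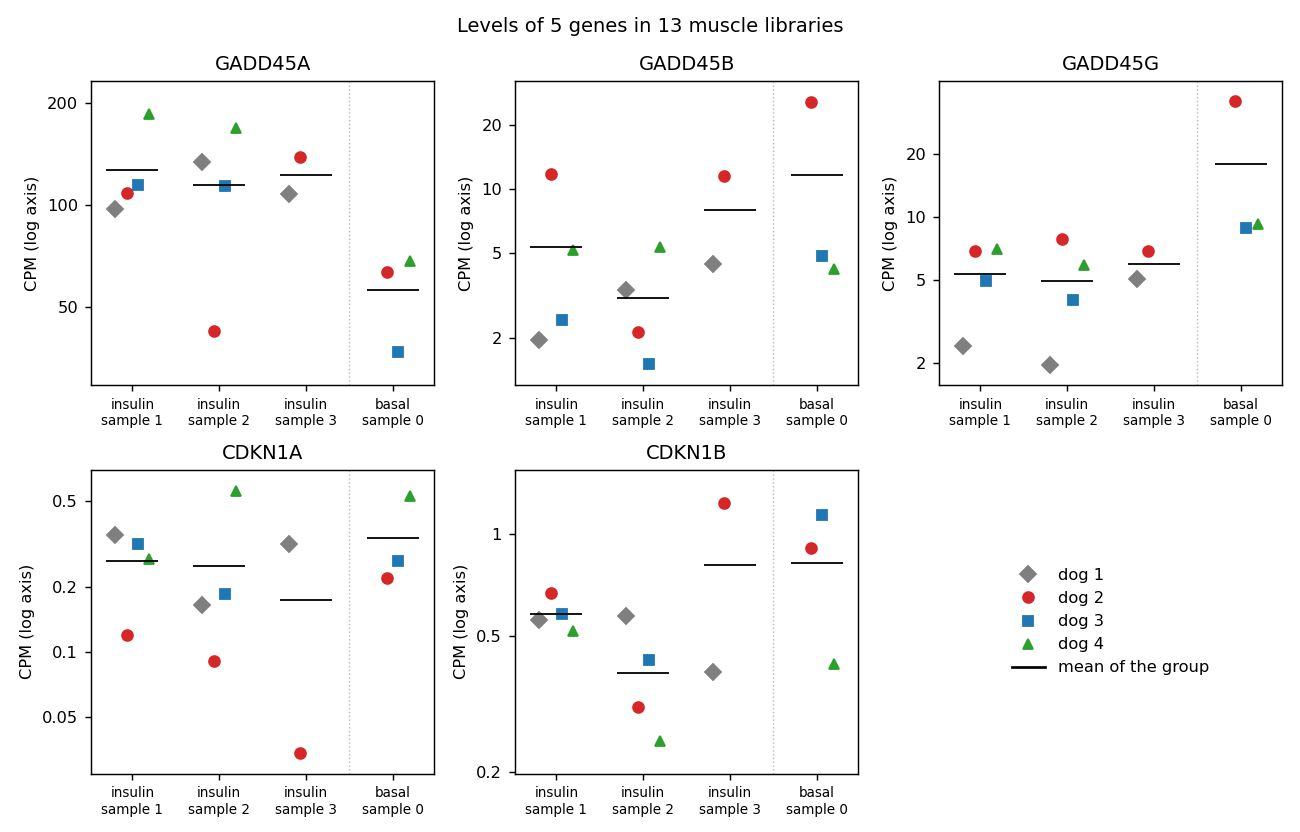
Level of each gene (CPM, log axis) in 13 libraries, by group on the horizontal axis, with 1 marker per library, coloured by dog, and a bar at the group mean. GADD45A has 1 insulin library (dog 2 sample 2, 42.7 CPM) among the basal values, and for GADD45G all 10 insulin libraries lie below the 3 basal libraries.

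GADD45B (ENSCAFG00000019386), the family member known as an early target of TGF-beta and NF-kappaB, was the most variable of the 3 GADD45 genes within dogs. Insulin sample 1 held 1.95, 11.7, 2.43 and 5.15 CPM in dogs 1 to 4. Insulin sample 2 held 3.34, 2.14, 1.51 and 5.34 CPM, and sample 3 held 4.43 CPM in dog 1 and 11.6 CPM in dog 2. Basal libraries held 25.6, 4.87 and 4.23 CPM in dogs 2, 3 and 4. It was lower under insulin in 5 of 7 pairs, all of them in dogs 2 and 3, while both insulin libraries of dog 4 were slightly above its basal library (1.22-fold and 1.26-fold). The groups overlapped. The means were 4.96 ± 3.76 CPM under insulin (SD, n = 10) and 11.6 ± 12.2 CPM at basal (SD, n = 3), and the fitted log2 fold change was -0.99 ± 0.46 (SE; edgeR adjusted p = 1; DESeq2 adjusted p = 0.806). Without dog 2 sample 0 the fitted value was -0.57.

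The SD of log2 CPM among insulin libraries, after removing dog means, was 0.91 for GADD45B, 0.54 for GADD45A and 0.44 for GADD45G, against a median of 0.41 over all 14629 genes. In dog 2 the 4 libraries held 11.7, 2.14, 11.6 and 25.6 CPM of GADD45B in insulin samples 1, 2 and 3 and in basal sample 0. GADD45A was also lowest in sample 2 of that dog, whereas GADD45G was highest there among the insulin libraries of the series.

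CDKN1A (ENSCAFG00000029853), which encodes p21, was scarce in all 13 libraries. It had 2 to 34 reads under insulin (median 11.5) and 14 to 23 reads at basal. Levels were 0.348, 0.12, 0.317 and 0.270 CPM in insulin sample 1 of dogs 1 to 4. They were 0.166, 0.0914, 0.186 and 0.560 CPM in insulin sample 2 of these dogs, and 0.317 and 0.0342 CPM in sample 3 of dogs 1 and 2. Basal libraries held 0.220, 0.266 and 0.531 CPM in dogs 2, 3 and 4. The range of the insulin libraries held all 3 basal values. Dog 2 was lower than dogs 3 and 4 both in basal sample 0 and in each shared insulin sample. Counting error alone was wide at these depths: the exact Poisson 95% interval was 0.00415 to 0.124 CPM for the 2 reads of dog 2 sample 3, and 0.388 to 0.783 CPM for the 34 reads of dog 4 sample 2. Such intervals cover counting error only. The fitted log2 fold change was -0.63 ± 0.51 (SE; edgeR adjusted p = 1), with 5 of 7 pairs lower under insulin, and it was -0.21 without dog 2 sample 0.

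CDKN1B (ENSCAFG00000013244), which encodes p27, had 15 to 72 reads per library under insulin and 18 to 77 at basal. Levels were 0.560, 0.668, 0.583 and 0.517 CPM in insulin sample 1 of dogs 1 to 4, the tightest group of the gene. They were 0.572, 0.311, 0.427 and 0.247 CPM in insulin sample 2, and 0.392 and 1.23 CPM in sample 3 of dogs 1 and 2. Basal libraries held 0.911, 1.14 and 0.416 CPM in dogs 2, 3 and 4. The highest library was an insulin library (dog 2 sample 3), so the groups overlapped. The fitted log2 fold change was -0.56 ± 0.44 (SE; edgeR adjusted p = 1), with 5 of 7 pairs lower under insulin, and it was -0.22 without dog 3 sample 0. In the RefSeq annotation of the UU_Cfam_GSD_1.0 assembly a long noncoding RNA, LOC119866422, overlaps CDKN1B. Only whole gene spans were compared, so whether the 2 transcripts share exon sequence was not tested. The library kit does not mark strand, so reads from any shared sequence cannot be told apart. The submitters' notes name another assembly, CanFam3.1.

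**Figure D2:**
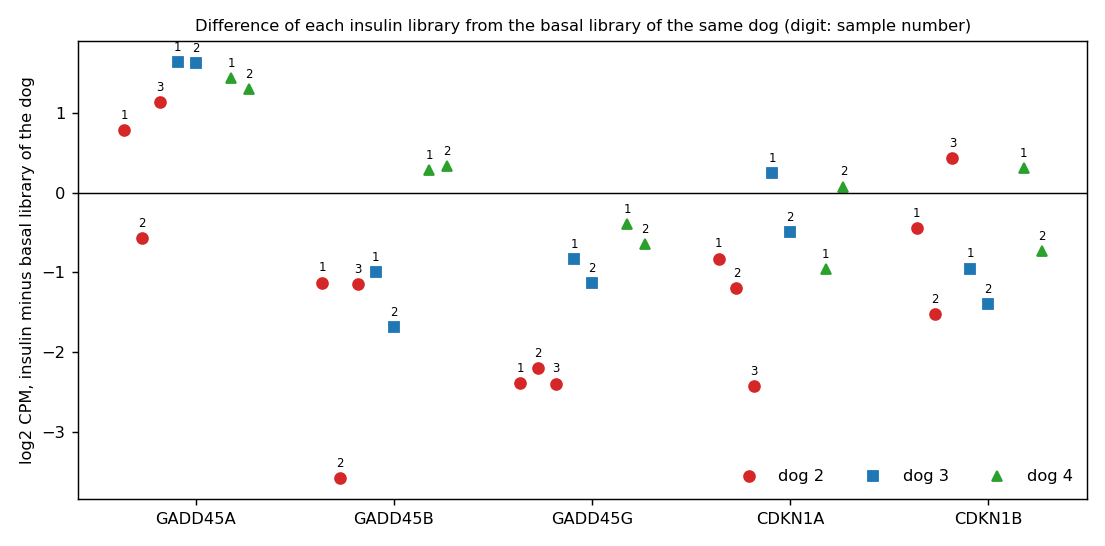
Difference in log2 CPM (vertical axis) between each insulin library and the basal library of the same dog, for dogs 2, 3 and 4; the digit beside a marker is the sample number. All 7 points of GADD45G are below 0, from -2.39 to -0.39, and 6 of 7 points of GADD45A are above 0, up to 1.63.

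In insulin against basal as a whole, 0 of the 5 genes passed edgeR's test after adjustment, in a comparison that called 0.137% of all genes. An unadjusted p under 0.05 was found for 3 of the 5, against 4.12% of all genes: 1 was higher (GADD45A, against 1.68% of all genes) and 2 were lower (GADD45B and GADD45G, against 2.44% of all genes). DESeq2 called 2 of the 5, GADD45A and GADD45G, and 0.711% of all genes. The median log2 fold change of the 5 genes was -0.63, against -0.0013 for all genes tested. The genes were chosen with earlier results of these data known, so these counts and this median may depend in part on that choice.

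The sample numbers were also compared within dogs, in a fit with dog and sample number. Insulin sample 1 against basal sample 0 gave log2 fold changes of 1.17 ± 0.35 for GADD45A, -0.94 ± 0.53 for GADD45B and -1.38 ± 0.39 for GADD45G. Insulin sample 2 against basal sample 0 gave 1.02 ± 0.36, -1.35 ± 0.58 and -1.55 ± 0.39 for the same genes. CDKN1A had -0.47 ± 0.62 in sample 1 and -0.72 ± 0.61 in sample 2, and CDKN1B had -0.40 ± 0.49 and -0.99 ± 0.50. Both comparisons use the same 3 basal libraries. After adjustment 0 of the 5 genes passed in either (lowest edgeR adjusted p 0.898 in sample 1 and 0.486 in sample 2, both for GADD45G), where 0% and 0.0479% of all genes were called. At an unadjusted p under 0.05 there were 2 of 5 in sample 1 (GADD45A and GADD45G, 2.99% of all genes) and 3 of 5 in sample 2 (GADD45A, GADD45B and GADD45G, 4.95% of all genes). DESeq2 called 0 of 5 in sample 1, with 0.284% of genes called, and GADD45G alone in sample 2 (adjusted p = 0.0257), with 0.519% of genes called.

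No difference between insulin samples passed the test for any of the 5 genes. Insulin sample 2 against insulin sample 1, with 4 dogs in each, gave log2 fold changes from -0.59 ± 0.45 for CDKN1B to -0.15 ± 0.31 for GADD45A. Here 0 of 5 passed edgeR's test and 0 of 5 DESeq2's, where either tool called 0% of all genes, and 0 of 5 had an unadjusted p under 0.05 (3.38% of all genes did). Insulin sample 3 against insulin sample 2, which rests on dogs 1 and 2, gave 0.33 ± 0.41 for GADD45A, 0.80 ± 0.64 for GADD45B, 0.51 ± 0.48 for GADD45G, -0.31 ± 0.79 for CDKN1A and 0.85 ± 0.57 for CDKN1B. Again 0 of 5 passed edgeR's test, which called 0% of all genes, 0 of 5 had an unadjusted p under 0.05 (5.17% of all genes did) and DESeq2 called 0 of 5, with 0.0547% of genes called. Dogs 1 and 2 differed in sign for each gene except GADD45B. GADD45A was 0.32 lower on the log2 scale in sample 3 of dog 1 and 1.70 higher in sample 3 of dog 2, and GADD45G was 1.37 higher in dog 1 and 0.20 lower in dog 2. GADD45B was 0.41 higher in dog 1 and 2.43 higher in dog 2.

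**Figure D3:**
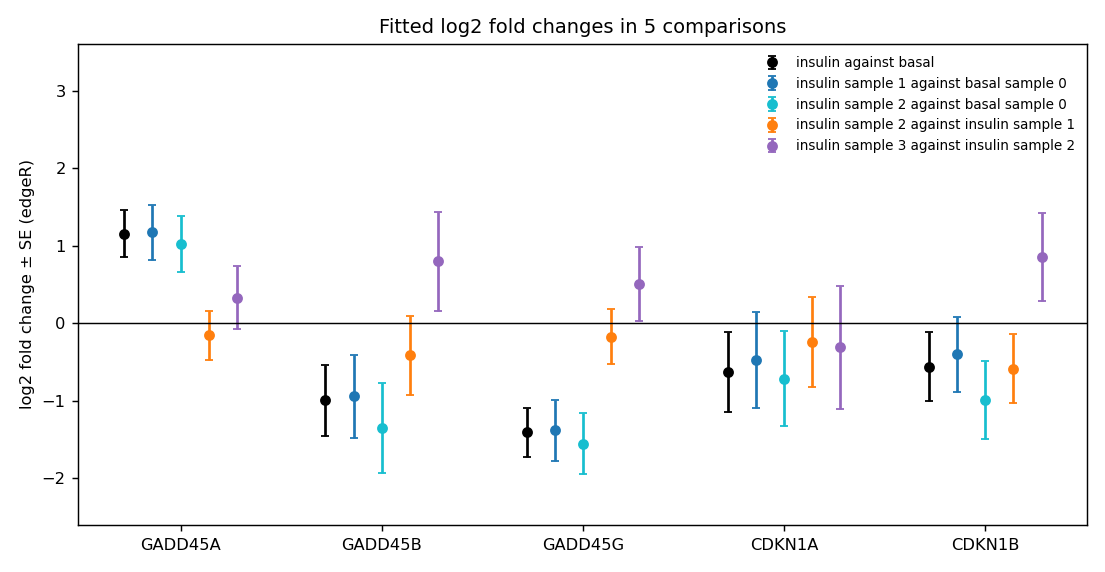
Fitted log2 fold change with its SE (vertical axis, edgeR with dog as a block) of each gene in 5 comparisons, coloured by comparison. GADD45A is above 0 and GADD45G below 0 in each of the 3 comparisons with basal libraries, and the comparisons among insulin samples lie within about 1 log2 unit of 0.

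Leaving out libraries or dogs kept the sign of each of the 5 GADD45 and Cip/Kip genes in insulin against basal. Over 17 such fits, 13 without 1 library and 4 without 1 dog, GADD45A ranged from 0.95 to 1.5 and passed in 2, both without dog 2 sample 2. GADD45G ranged from -1.76 to -0.75 and passed in 0, with a lowest adjusted p of 0.0850 without dog 1 sample 3. When the insulin reads of a dog were added up into 1 library, GADD45A had 1.22 ± 0.20 (edgeR adjusted p = 0.316) and GADD45G had -1.27 ± 0.37 (adjusted p = 1), in a fit that called 0.0188% of genes.

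**Figure D4:**
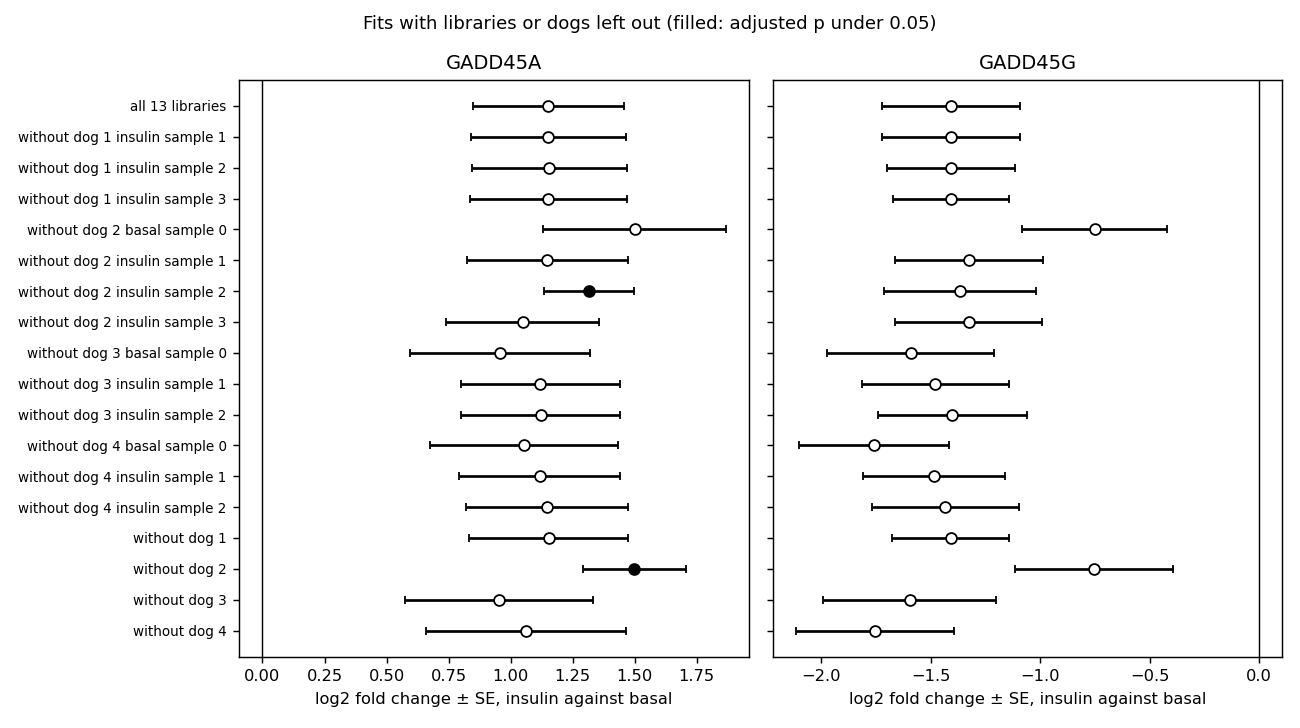
Log2 fold change with its SE (horizontal axis, insulin against basal) of GADD45A and GADD45G in the fit on all 13 libraries and in 17 fits with 1 library or 1 dog left out; filled points have an adjusted p under 0.05. GADD45A is filled in 2 fits (without dog 2 sample 2 and without dog 2), and GADD45G shrinks to -0.75 wherever dog 2 sample 0 is absent.

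Patterns across the 13 libraries were compared after removing dog means from log2 CPM. As a description over libraries that share dogs and groups, Pearson's r was 0.61 between GADD45B and GADD45G, -0.49 between GADD45A and GADD45G and 0.12 between GADD45A and GADD45B. Among 8245 named genes with a mean log2 CPM of at least 1, the gene most like GADD45A was SERTAD1 (r = 0.93), which encodes a CDK4-binding protein. It had 21.9 ± 4.19 CPM under insulin (SD, n = 10) and 12.6 ± 4.08 CPM at basal (SD, n = 3), with a log2 fold change of 0.80 ± 0.23 (edgeR adjusted p = 0.430). PHACTR2 (r = 0.90), a phosphatase and actin regulator, and FLYWCH2 (r = 0.89) followed. The genes most like GADD45G were DUSP10 (r = 0.93), a phosphatase of p38 and JNK, and IFRD1 (r = 0.90), a transcriptional regulator of muscle regeneration in mouse. DUSP10 had 25.4 ± 19.2 CPM under insulin (SD, n = 10) and 58.0 ± 55.4 CPM at basal (SD, n = 3), and it passed edgeR's test (-0.96 ± 0.17, adjusted p = 0.0478). IFRD1 passed as well (-1.45 ± 0.22, edgeR adjusted p = 0.0228). Only dog means were removed before ranking, so the difference between insulin and basal was part of r. The tests of genes picked this way are therefore not separate evidence on the GADD45 genes. Over the 8245 genes compared, the 99th percentile of r was 0.70 for GADD45G and 0.67 for GADD45A. Over the 17 fits with a library or dog left out, DUSP10 passed in 4 and IFRD1 in 8, and neither passed with insulin reads added up per dog.

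The genes most like GADD45B were ARMC12 (r = 0.91), PLBD2 (r = 0.89) and CD163 (r = 0.86), a scavenger receptor of macrophages. All 3 had an edgeR adjusted p of 1 in insulin against basal, and CD163 had 4.26 CPM under insulin and 5.45 CPM at basal. In bulk tissue fewer cells of a type and less RNA per cell cannot be told apart. Macrophage markers (7 of 8 found) summed to 17.6 to 45.6 CPM in insulin libraries, against 25.9 to 72.5 CPM in basal libraries. The lowest sum of the series was in dog 2 sample 2, the library in which GADD45B was 2.14 CPM. GADD45B was lower still in dog 3 sample 2 (1.51 CPM, macrophage sum 27.5 CPM) and dog 1 sample 1 (1.95 CPM, macrophage sum 38.3 CPM). The highest sum, 72.5 CPM, was in dog 3 sample 0, where GADD45B was 4.87 CPM. The basal library with the highest GADD45B and GADD45G, dog 2 sample 0, had a macrophage sum of 29.7 CPM, inside the insulin range.

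Markers of other cells also differed between some libraries. Neutrophil markers (6 of 8 found) summed to 22.5 to 63.8 CPM under insulin and 29.9 to 72.8 CPM at basal, most of it S100A8. All 4 neutrophil markers tested were below 0, with a median log2 fold change of -1.26, as were GADD45B and GADD45G. At an unadjusted p under 0.05 there were 3 of the 4, CSF3R (-1.46 ± 0.51), S100A12 (-1.05 ± 0.35) and CXCR2 (-2.02 ± 0.85), against 2.44% of all genes lower. After adjustment 0 passed edgeR's test. Dog 2 sample 0, with the highest GADD45B and GADD45G, had a neutrophil sum of 40.2 CPM, inside the insulin range. Dog 3 sample 0, with the highest neutrophil sum, had 4.87 CPM of GADD45B and 8.82 CPM of GADD45G. Fibroblast markers (9 of 9) summed to 355 to 1222 CPM under insulin and 253 to 3025 CPM at basal. Endothelial markers (10 of 10) summed to 99.5 to 393 CPM under insulin and 130 to 445 CPM at basal. The highest neutrophil, fibroblast, endothelial and macrophage sums were all in dog 3 sample 0. Satellite cell markers (8 of 8) summed to 43.4 to 72.8 CPM under insulin and 40.7 to 46.1 CPM at basal. MYOD1, a myogenic transcription factor, was the 1 marker of that list that passed edgeR's test (2.76 ± 0.36, edgeR adjusted p = 0.00561). At an unadjusted p under 0.05 PAX7 (0.80 ± 0.33) and CHRDL2 (1.20 ± 0.52) were also higher, and MYF5 (-0.86 ± 0.36) was lower. Red blood cell markers (7 of 9) summed to 36.6 to 51.4 CPM under insulin and 35.8 to 46.4 CPM at basal, most of it GYPC and SLC25A37. The scarcer ALAS2 and HBM of that list had -1.89 ± 0.54 and -2.16 ± 0.85 (edgeR adjusted p of 0.430 and 0.975). Lymphocyte markers (9 of 9) summed to 62.1 to 136 CPM under insulin and 91.5 to 115 CPM at basal, most of it CD79A. CD79A averaged 96.2 CPM under insulin and 97.4 CPM at basal, against 0.20 and 0.10 CPM for CD79B. Smooth muscle and pericyte markers (7 of 7) summed to 85.9 to 246 CPM under insulin and 93.9 to 205 CPM at basal, and adipocyte markers (4 of 5) to 15.1 to 42.9 CPM under insulin and 10.8 to 78.3 CPM at basal. No marker found was at 0 in every library, and the part of these cells in the differences of the 5 genes was not tested.

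Genes that lie beside these genes in the RefSeq annotation of UU_Cfam_GSD_1.0 were looked up by position. GNG12, next to GADD45A, had 2.00 CPM under insulin and 2.01 CPM at basal, a log2 fold change of 0.07 ± 0.48. GNG7 and LMNB2, on the sides of GADD45B, had -0.20 ± 0.21 and 0.26 ± 0.27. SEMA4D, next to GADD45G, had -0.13 ± 0.21, SRSF3, next to CDKN1A, had -0.24 ± 0.14, and GPR19, next to CDKN1B, had -0.07 ± 0.44. All 6 had an edgeR adjusted p of 1.

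Other genes of the same pathways were read from lists. The cell cycle core, which these inhibitors act on, had 0 of 22 tested genes past the threshold in either direction and 0 at an unadjusted p under 0.05 in edgeR. Its median log2 fold change was 0.10, against -0.0013 for all genes. SKP2, part of the ligase that degrades p27, had 1.78 CPM under insulin and 1.26 CPM at basal (0.45 ± 0.29), CCNE1, cyclin E1, had 0.59 ± 0.39 and E2F3 had 0.95 ± 0.70 (edgeR adjusted p = 1 for all 3). The division markers MKI67 and TOP2A were scarce, at 0.0757 and 0.0625 CPM under insulin and 0.0716 and 0.0569 CPM at basal. The list of INK4 and other CDK inhibitors had 0 of 3 tested genes past the threshold. It includes CDKN2AIP, which encodes a protein that interacts with the CDKN2A product and is not a CDK inhibitor. CDKN2C had 3.25 CPM under insulin and 3.67 CPM at basal, CDKN2AIP had 8.19 CPM under insulin and 7.68 CPM at basal, and CDKN2D had 6.76 CPM under insulin and 6.62 CPM at basal (edgeR adjusted p = 1 for all 3).

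Partners of GADD45 proteins in p38 and JNK signalling had 0 of 12 genes past the threshold and 0 at an unadjusted p under 0.05 (median 0.03). MAPK13 had -0.75 ± 0.43, the JNK activator MAP2K7 had -0.64 ± 0.40 and the p38 activator MAP2K6 had -0.18 ± 0.19 (edgeR adjusted p = 1 for all 3). Partners in DNA repair and demethylation had 0 of 7 past the threshold and TET2 alone at an unadjusted p under 0.05 (-0.43 ± 0.19, adjusted p = 1). TET3 had 1.05 ± 0.55 and MBD4 had 0.17 ± 0.18 (adjusted p = 1 for both). The integrated stress response, through which ATF4 raises GADD45A in mouse muscle, had 0 of 13 past the threshold and 0 at an unadjusted p under 0.05 (median 0.07). TRIB3 had 0.292 CPM under insulin and 0.0539 CPM at basal (2.52 ± 1.29, and 1.09 without dog 3 sample 0 to 7.60 without dog 4), PSAT1 had 0.59 ± 0.33 and CEBPG had 0.40 ± 0.26 (adjusted p = 1 for all 3).

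The denervation list, of genes known to respond, most of them upward, when mouse muscle loses its nerve, had 0 of 13 past the threshold, with 7 above and 6 below 0 (median 0.06). In insulin sample 1 against basal the median was 0.36, with 9 above and 4 below 0. In insulin sample 2 against basal it was -0.35, with 2 above and 11 below 0, and 0 of 13 passed in either. MYOG, a myogenic transcription factor, had 8.40 ± 4.21 CPM under insulin (SD, n = 10) and 3.37 ± 0.50 CPM at basal (SD, n = 3), a log2 fold change of 1.37 ± 0.31 (edgeR adjusted p = 0.188; DESeq2 adjusted p = 0.00292). HDAC9, which is known to fall on denervation in mouse muscle, had -0.87 ± 0.34 (edgeR adjusted p = 0.956) and MUSK had 0.41 ± 0.24 (adjusted p = 1). TGF-beta response genes had 0 of 13 past the threshold (median 0.12), with CCN2 at -0.97 ± 0.37 (adjusted p = 0.956), PMEPA1 at 0.48 ± 0.38 and ID3 at 0.41 ± 0.35 (adjusted p = 1 for both). FoxO factors and targets were the pathway list with called genes: 0 of 14 were higher and 3 lower, against 0.137% of all genes called in either direction. The 3 were PDK4 (-3.55 ± 0.37), TRIM63 (-2.22 ± 0.26) and TXNIP (-1.73 ± 0.28). In this list 11 of 14 were below 0 (median -0.57, against -0.0013 for all genes). PDK4 did not pass with insulin reads added up per dog (edgeR adjusted p = 0.456), and TXNIP passed in 4 of the 17 fits with a library or dog left out. PDK4, TRIM63 and TXNIP were known from earlier results of these data when the list was drawn up. The count and median of the list therefore depend in part on that choice. FBXO32, another muscle atrophy ligase of that list, averaged 36.8 CPM under insulin and 102 CPM at basal (edgeR adjusted p = 1), and CCNG2, a cyclin relative that slows the cell cycle, averaged 8.86 CPM under insulin and 14.5 CPM at basal (adjusted p = 0.393). 

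**Figure D5:**
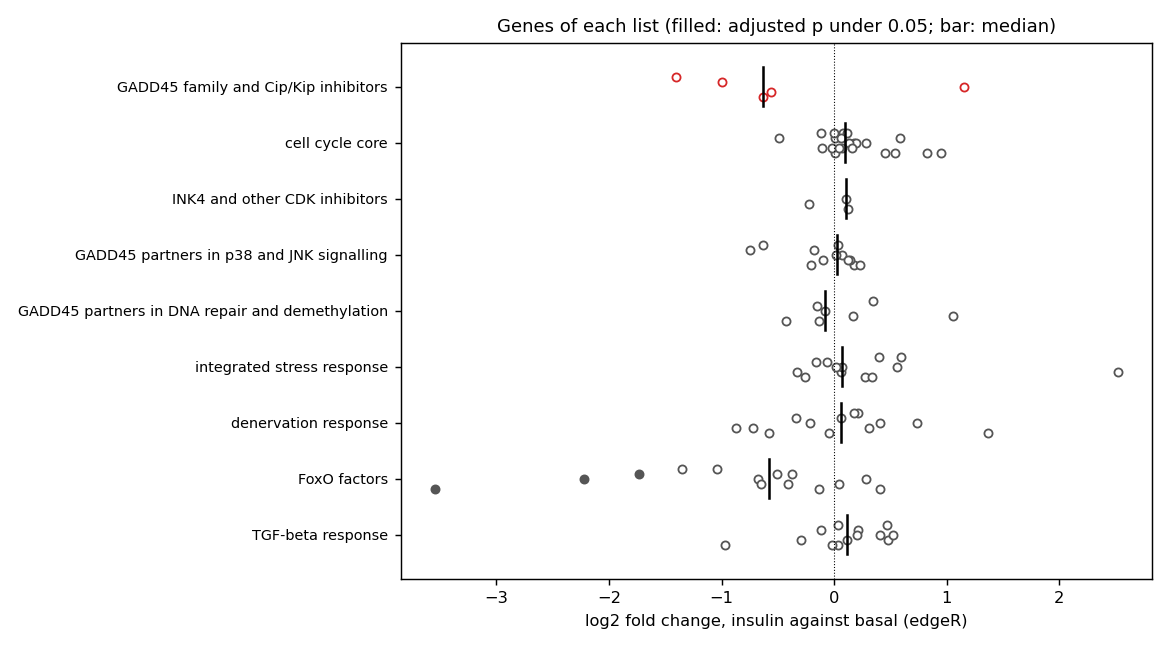
Log2 fold change of each tested gene (horizontal axis, insulin against basal) by list, with the 5 GADD45 and Cip/Kip genes in red on the top line, filled points for an adjusted p under 0.05 and a bar at each median. Filled points are found in the FoxO list alone (3 genes), and among the 5 genes GADD45A is the 1 gene above 0.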

How the data were processed

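RNA sequencing libraries of dog muscle were made with a full-length cDNA kit (Takara SMARTseq) and Nextera XT, per the labels' protocols. The authors deposited raw read counts as whole numbers per gene and library, and a normalized signal, which was each count divided by 1 size factor per library; the signal served only to check the columns. The submitters' processing notes name Bowtie 0.12.2 and CanFam3.1. The counting program, annotation and strand setting are not given in the sources used here.

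Counts were fitted in R 4.3.3 with edgeR 4.0.16 (filterByExpr, TMM, robust quasi-likelihood), with dog as a block, p adjusted over all 14629 genes tested and a threshold of 0.05. SEs were derived from each coefficient and its F value. DESeq2 1.42.0 was an alternative. Libraries of 1 dog were treated as independent given the dog, which the labels do not establish. Log2 CPM used a prior count of 0.5. The dog numbers come from the labels and name animals. Deviations from group means had a median r of 0.18 over 15 same-dog pairs and -0.055 over 47 pairs of different dogs. Between libraries of 1 group, which all came from different dogs, the chi-square per gene was 144 or more. No such pair agreed within sampling noise, and libraries of the same dog were not compared in this way. The fits were tested on simulated data. Total counts per library ranged from 45200416 to 81948641.

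Members and lists were chosen with earlier results of these data known. Named genes were the members, up to 3 genes of lowest p per list, and the 3 genes with the highest r to each member of mean log2 CPM of at least 1. FBXO32, CCNG2, MKI67, TOP2A and the neighbouring genes were added after values were seen. Gene names for position came from RefSeq, and all 5 members matched by symbol. Some genes that these rules name are not reported here.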

Additional observations from a re-analysis of the deposited data

Results flagged for a closer look

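GADD45A in dog 2 sample 2 was set apart by its distance from the other insulin libraries. It held 42.7 CPM, against 97.6 CPM in the next lowest insulin library (dog 1 sample 1), a gap of 0.56 of the whole range of log2 CPM over 10 libraries, past Dixon's 95% critical value for 10 samples. It was the 1 flag among 15 groups of libraries examined for the 5 genes, and chance flags about 1 in 20 groups of independent samples; these 10 libraries came from 4 dogs. The macrophage marker sum was also at its lowest in that library (17.6 CPM).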

How the results depend on the processing

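The dog numbers pair the libraries, and without the replicate block edgeR called 6 genes of the 14197 that its filter then kept in insulin against basal (20 of 14629 with it) and 0 in sample 2 against basal (7 with it), with GADD45A at 1.11, GADD45G at -1.77 and, in the other direction than with the block, MAP2K6 at 0.32 and ARMC12 at 0.30; no call of the 5 genes changed. DESeq2 called 104, 40, 73 and 8 genes in insulin, sample 1 and sample 2 against basal and in sample 3 against sample 2, and called GADD45A (1.16) and GADD45G (-1.40). No filter on low counts gave 140, 16 and 28 genes in the first 3 of these comparisons, and called GADD45A (1.15), GADD45B (-0.99) and GADD45G (-1.41). RLE size factors gave 4 genes in sample 1 against basal, and insulin reads added up per dog gave 3 in insulin against basal. The cause of these shifts was not tested.

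Leaving out 1 library or dog gave 4 to 28 genes in insulin against basal, 0 to 8 in sample 1 and 0 to 13 in sample 2 against basal, and GADD45A at 0.95 to 1.5, GADD45B at -1.46 to -0.57, CDKN1A at -0.88 to -0.21 and CDKN1B at -0.77 to -0.22. Direction changed for CDKN2C (-0.37 to 0.017), ID3 (-0.12 to 0.76), ARMC12 (-0.45 to 0.20) and CD163 (-0.97 to 0.13). In sample 2 against sample 1 it changed for GADD45A (-0.44 to 0.18), GADD45B (-0.91 to 0.095), GADD45G (-0.32 to 0.015) and CDKN1A (-0.75 to 0.11). In sample 3 against sample 2 it changed for GADD45A (-0.15 to 0.81), GADD45G (-0.43 to 1.37), CDKN1A (-1.81 to 0.47) and CDKN1B (-0.30 to 1.80). TRIM63 passed in 15 of 17 fits and TXNIP in 4, and PDK4 did not pass without the block. Under the other settings tried, all 5 genes kept the sign they had in insulin against basal. Reads of CDKN1A (2 to 34 per library) and CDKN1B (15 to 77) limit what can be detected for them, and 3 basal libraries limit every comparison with basal.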
